A study of Bos taurus with 10 samples.

Results

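The rows described here are small RNA fragments assigned to tRNA-like loci of cattle that carry a glycine or glutamate name, counted in bull sperm. Every row of the deposited tsRNA table whose name begins with tRX-Gly or tRX-Glu and ends in a fragment type on the sense strand was taken. This gave 35556 of the 184397 rows, which are 8889 loci with 4 rows each: 5′ fragments, 3′ fragments, fragments of neither end (called other in the row names), and whole counts. Of these loci 6619 were glycine and 2270 glutamate loci, and all were named with the anticodon NNN, so the table does not divide them by anticodon. The rows set beside them are the 188 rows with the tRNA prefix of the same isotypes, which are 47 genes. The label was not checked against sequence, since no sequence or position of these loci was at hand.

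The study sequenced sperm small RNA from 10 samples to compare bulls with high and low fertility and bulls whose daughters had high and low fertility. High bull fertility, low bull fertility, high daughter fertility and low daughter fertility had 3 samples each. Of the 3 samples with high bull fertility, 1 was also labelled high and 1 low for daughter fertility, so the comparisons share these 2 samples. All samples were sperm with no extra treatment, and the sources used here do not give breed, age or cell purity. The labels do not state how many bulls these samples were drawn from. The p-values therefore judge differences only against the spread between these samples, which need not be the spread between bulls.

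In tRNA annotation the tRX prefix marks loci that resemble tRNA genes but score too low to count among the confident genes. In mammals many such loci are retrocopies or belong to short interspersed elements that descend from tRNAs, and ruminant genomes carry a family of such elements with a head related to glutamate tRNA. Whether the loci here lie in such elements was not analysed here. Mature tRNAs are cut in the anticodon loop by angiogenin and related nucleases. In mouse, the 5′ fragments of Gly-GCC and Glu-CTC tRNAs are among the most abundant small RNAs of mature sperm, they are gained during passage through the epididymis, and they change with the diet of the father. In mouse embryonic stem cells the 5′ Gly-GCC fragment represses genes linked to the endogenous retrovirus MERVL.

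The table holds 1 normalized value per group and row, which is the authors' value and carries no SD or n. From their step sizes these values act as the median library of each group of 3, so a value of 0 means that at least 2 of the 3 libraries held no read. In what follows a mean is the mean of a row's 4 group values. Fold changes and p-values are the authors', standard errors (SE) were derived here from both, and p-values were adjusted here over all rows with a p by the Benjamini-Hochberg method. Read back from the steps between values, 1 normalized count stood for 0.618 to 1.39 reads in the libraries with high and 0.945 to 1.89 in those with low bull fertility. The corresponding ranges were 0.618 to 0.785 reads with high and 0.903 to 2.21 with low daughter fertility, which do not overlap. The part of this depth difference in the daughter fertility results was not tested.

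Most of these rows were at 0, and few 5′ rows carried almost all of the signal. Of the 35556 rows, 26740 (75.2%) were at 0 in every group, 8816 were above 0 in at least 1 group, and 840 (2.36%) reached a mean of 10. The share at 0 was near that of all rows of the table (73.1%) and of tRX rows of other isotypes (77.5%). A mean of 100 was reached by 245 rows (0.689%, against 0.541% of all rows). Among the tRNA-prefixed glycine and glutamate rows 87 of 188 (46.3%) reached a mean of 10 and 63 reached 100, while 2.09% of all rows of the table reached 10. All whole-count rows of the tRNA-like loci were at 0 in all 4 groups. At the level of loci, 2027 of 8889 had no fragment above 0 in any group, 1670 of them glycine and 357 glutamate loci. Where a value was above 0 its median was 2 reads in each group, and between 33.7% (low bull fertility) and 41.3% (high daughter fertility) of such values were a single read.

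**Figure D1:**
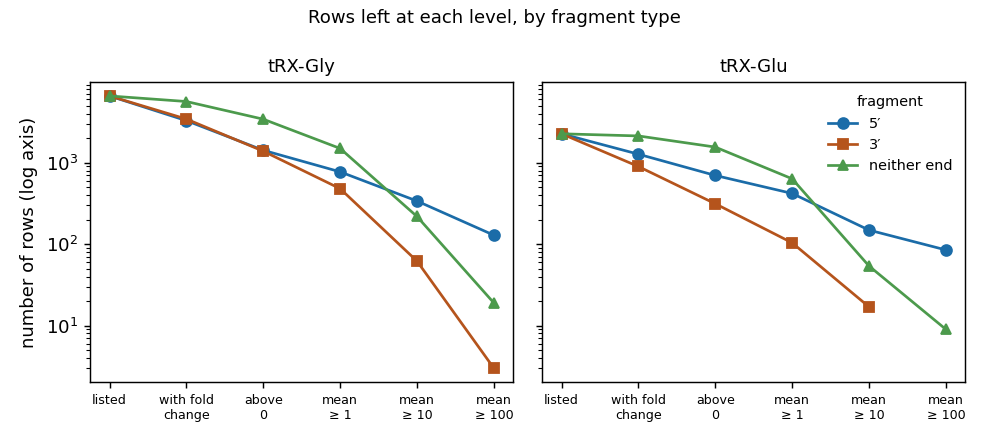
Number of tRX-Gly (left) and tRX-Glu (right) rows listed, with a fold change, above 0 in any group, and past means of 1, 10 and 100 over the 4 group values, by fragment type, on a log axis; 0 glutamate 3′ rows reach 100, so no point is drawn there. Rows of neither end lead in number among all rows above 0, whereas 5′ rows lead at means of at least 100, with 129 glycine and 85 glutamate rows.

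The fragment type that led a locus changed with its level. Among all loci above 0, fragments of neither end led in 2809 of 4949 glycine loci (56.8%) and in 1200 of 1913 glutamate loci (62.7%). Among loci whose summed mean reached 100, the 5′ fragment led in 129 of 151 glycine loci (85.4%) and 86 of 95 glutamate loci (90.5%). In the sums of group values, 5′ rows held 86.4% to 89.6% of the glycine and 95.9% to 96.7% of the glutamate signal, the lowest and highest over the 4 groups. The 3′ rows held 2.38% to 3.55% of the glycine signal and 0.448% to 0.648% of the glutamate signal. Among tRNA-prefixed rows the 5′ share was 93.3% to 94.5% for glycine and 87.3% to 92.7% for glutamate. The 10 leading 5′ rows held 62.7% of the glycine and 36.0% of the glutamate 5′ signal. More of the glutamate than of the glycine signal thus lay outside the 10 leading rows.

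The tRNA-like loci held a large share of the signal under these isotype names. Their summed group values were 335015 where bull fertility was high and 318443 where it was low, and 308155 where daughter fertility was high and 394610 where it was low. These sums made up 41.8%, 30.2%, 29.7% and 35.7%, in the same order, of all glycine and glutamate fragment values, tRNA-prefixed rows included. For glutamate alone the shares were 47.7%, 36.6%, 33.1% and 46.7%, and for glycine 36.3%, 25.8%, 26.4% and 28.2%. The lower share with low bull fertility stood beside a larger sum of the tRNA-prefixed rows, 735088 against 466423 with high bull fertility. No test of these shares can be made from 1 value per group. Of the values of all tRX fragments, whatever the isotype, the glycine and glutamate loci held 44.9% to 45.5% in the 4 groups. Fragments that match several loci may be counted at each of them, since nothing at hand states how such reads were treated, and these sums need not count separate molecules.

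The leading glycine locus was tRX-Gly-NNN-252, whose 5′ row had the highest mean of all members. Its group values were 13910 where bull fertility was high and 16034 where it was low, and 12990 where daughter fertility was high and 21001 where it was low. The value with low daughter fertility is thus the highest of the 4. By the authors' deposited table its log2 fold change, high over low, was -0.05 (SE 0.76) for bull fertility and -0.20 (SE 0.76) for daughter fertility, both smaller than their errors. The 5′ rows of tRX-Gly-NNN-52 and tRX-Gly-NNN-1 had nearly the same values, 13789 in both with high bull fertility and 20869 and 20855 with low daughter fertility. The 5′ values of tRX-Gly-NNN-252 stood for 10197 to 30342 reads, yet its 3′ row was at 0 in all groups and its row of neither end lay between 15.4 and 24.3.

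The leading glutamate 5′ rows did not share 1 pattern over the groups. The 5′ row of tRX-Glu-NNN-1230 had 12207 where bull fertility was high and 12074 where it was low, and 24407 where daughter fertility was high and 14366 where it was low. It stood highest with high daughter fertility, and by the authors' deposited table the log2 fold change for daughter fertility was 0.87 (SE 0.79, unadjusted p = 0.272, adjusted p = 1). The fragments of neither end of the same locus had 148, 242, 252 and 148 in the 4 groups as listed. Here high daughter fertility lay only slightly above low bull fertility. The value of 148 recurs in high bull and low daughter fertility, which share a library. The 5′ row of tRX-Glu-NNN-4424 was nearly level, at 10627, 9002, 10665 and 11235. That of tRX-Glu-NNN-94, at 4840, 4005, 4636 and 6143, was highest with low daughter fertility, with a log2 fold change of -0.43 (SE 0.66) for daughter fertility by the authors' deposited table. The most abundant tRNA-prefixed glutamate row, the 5′ fragment of tRNA-Glu-CTC-2, had 56314, 81192, 104232 and 65525. Like tRX-Glu-NNN-1230 it was highest with high daughter fertility by group value. Its log2 fold change for daughter fertility by the authors' deposited table was only 0.07 (SE 0.70), against 0.87 for tRX-Glu-NNN-1230.

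**Figure D2:**
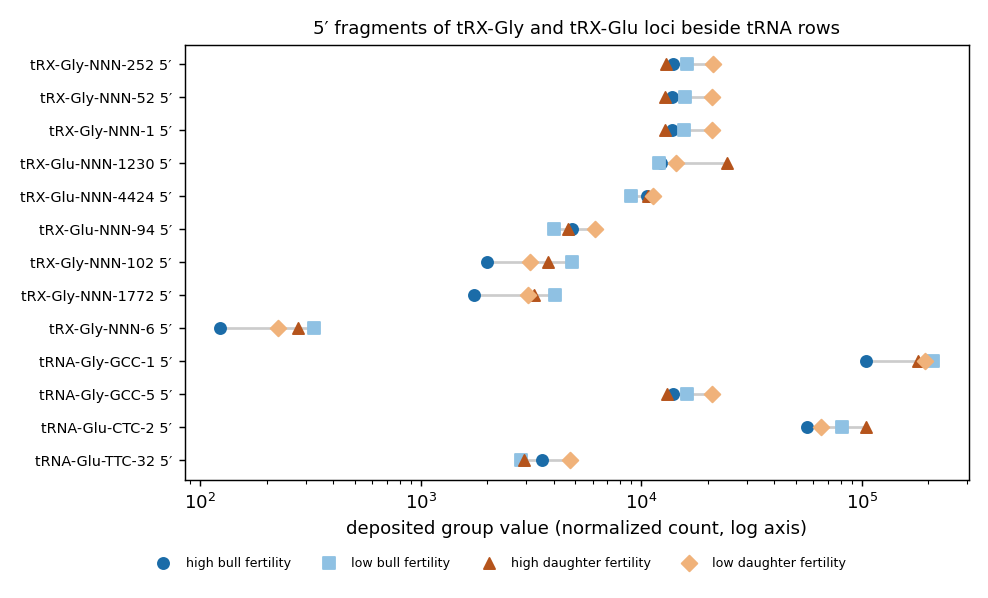
Authors' group values (log axis) of the leading 5′ rows of tRX-Gly and tRX-Glu loci in the 4 fertility groups, beside the leading tRNA-prefixed rows. Each point is 1 group value with no error available, and tRX-Gly-NNN-252 runs from 12990 to 21001 while tRX-Glu-NNN-1230 runs from 12074 to 24407.

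Many 5′ rows with high values lay near other rows in all 4 groups. Of the 214 5′ rows with a mean of at least 100, 103 lay between 100 and 150, 29 between 150 and 1000, 46 between 1000 and 2000, 29 between 2000 and 10000, and 7 at 10000 or more. The bin from 100 to 150 was mostly glycine, with 84 glycine and 19 glutamate rows, while from 2000 to 10000 there were 4 glycine and 25 glutamate rows. From the most abundant member down, the 5′ rows whose values lay within 10% of that member in all 4 groups were gathered into a set with it, a description chosen after the values were seen. Rows of a set may therefore differ from each other by more than 10%. The 214 members fell into 56 sets, of which 31 held at least 2 members and took in 189. In 18 sets the row stood alone, with no row of any name beside it. How often 5′ rows of other names form such sets was not computed. Sets that held both glycine and glutamate loci numbered 15 and took in 138 members, and 6 sets, with 68 members, held a tRNA-prefixed row.

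The set with the most members held 79 rows, of which 20 were tRX-Gly, 24 tRX-Glu and 33 tRX loci of other names. The other rows were the 5′ fragments of tRNA-Arg-TCT-9 and tRNA-Gln-TTG-6. Over all 79 rows the values ran from 1655 to 1845 with high and 1484 to 1620 with low bull fertility, and from 1144 to 1324 with high and 1489 to 1617 with low daughter fertility. All 79 log2 fold changes in the authors' deposited table lay between -0.04 and 0.05 for bull fertility and between -0.0014 and 0.15 for daughter fertility. The narrow ranges of group values follow from the rule that gathered the set. What the set shows is that the rows so gathered carry glycine, glutamate, arginine and glutamine names, among others. Whether they rest on the same reads cannot be told from these values, because the sequences are not given.

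Other sets differed in how they mixed the names. In 1 set of 17 rows, 12 were tRX-Glu, 4 were other tRX loci and 1 was the 5′ fragment of tRNA-Glu-TTC-32, with values over all its rows of 3516 to 3609 and 2730 to 2878 for high and low bull fertility and 2890 to 3066 and 4625 to 4736 for high and low daughter fertility. In a set of 32 rows 8 were tRX-Glu, 1 was tRX-Gly and 23 were tRX loci of other names, with values over all 32 of 5674 to 5817 with low daughter fertility. The set of tRX-Gly-NNN-252 held 12 rows, which were 3 tRX-Gly loci, 3 tRX loci of alanine and aspartate name, and 6 tRNA-prefixed rows (the 5′ fragments of tRNA-Gly-GCC-4, tRNA-Gly-GCC-5, tRNA-Gly-CCC-3, tRNA-Gly-CCC-5, tRNA-Gly-CCC-8 and tRNA-Gly-CCC-35). In this set tRNA-Gly-GCC-5 had 13892, 16029, 13000 and 20997, close to tRX-Gly-NNN-252 in every group. The most abundant tRNA-prefixed row, the 5′ fragment of tRNA-Gly-GCC-1, lay far above both, at 104369, 209620, 179868 and 193762.

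Near-equal group values did not always come with equal fold changes. For daughter fertility the authors' deposited table gives tRNA-Gly-CCC-3 a log2 fold change of -1.06 (SE 0.65, unadjusted p = 0.105, adjusted p = 1), against -0.20 (SE 0.76) for tRX-Gly-NNN-252, although the group values of the former lay within 10% of those of the latter. The group values show only the median library, and the model behind the fold changes is not stated.

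**Figure D3:**
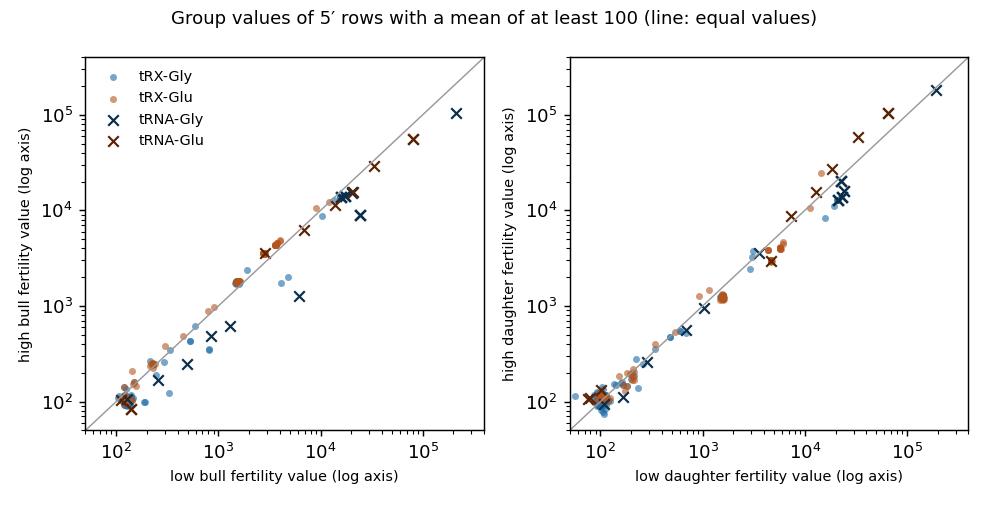
Authors' group value for high against low bull fertility (left) and high against low daughter fertility (right), in normalized counts on log axes, for tRX-Gly, tRX-Glu and tRNA-prefixed 5′ rows that reach a mean of 100; the line marks equal values. The 20 tRX-Gly and 24 tRX-Glu rows of the set of 79 were gathered by their near-equal values. They lie at 1144 to 1324 for high against 1489 to 1606 for low daughter fertility.

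Abundant 3′ fragments were rare. A mean of 100 was reached by 3 of the 3′ rows, all glycine. The highest was tRX-Gly-NNN-3098, whose 3′ row had 983 where bull fertility was high and 931 where it was low, and 1280 where daughter fertility was high and 121 where it was low. Its value with low daughter fertility is far below the others, and no 5′ fragment of this locus was above 0. By the authors' deposited table its log2 fold change was 0.01 (SE 1.00) for bull fertility and 1.96 (SE 1.00, unadjusted p = 0.0497, adjusted p = 1) for daughter fertility. The 3′ row of tRX-Gly-NNN-1 had 119, 407, 134 and 394 in the order of groups used above, so both low fertility groups were higher. Its log2 fold changes by the authors' deposited table, -0.88 (SE 1.00) and -0.76 (SE 1.00), were smaller than their errors. Among glutamate loci the leading 3′ row, tRX-Glu-NNN-7464, lay between 69.6 and 83.7 in all groups. The 3′ row of tRX-Glu-NNN-6953 had 77.1, 89.3, 32.8 and 9.06, and a log2 fold change for daughter fertility of 2.12 (SE 1.06, unadjusted p = 0.0463, adjusted p = 1) by the authors' deposited table.

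Fragments of neither end reached at most a mean of 509. The 3 leading glycine rows were those of tRX-Gly-NNN-34942, tRX-Gly-NNN-1565 and tRX-Gly-NNN-39969. That of tRX-Gly-NNN-34942 had 386, 698, 566 and 386, the same value in the groups high bull and low daughter fertility, which share a library. That of tRX-Gly-NNN-39969 had 715 where bull fertility was high and 178 where it was low, and 715 where daughter fertility was high and 9.51 where it was low. The value of 715 is again a shared library, here the one labelled high for both traits. The authors' deposited table gives this row log2 fold changes of 0.44 (SE 1.25) and 0.77 (SE 1.25), whereas the log2 ratios of its group values with a pseudocount of 1 were 2.00 and 6.09. Across the 840 rows that reach a mean of 10, the high bull value equalled the low daughter value in 150 rows and the high daughter value in 90.

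The rows of neither end of tRX-Gly-NNN-1565 and tRX-Glu-NNN-1273 followed each other. The first had 628, 409, 385 and 432, the second 644, 412, 386 and 439, and neither locus had a 5′ fragment in any group. The leading glutamate row of this kind, tRX-Glu-NNN-1860, had 628, 493, 214 and 695, lowest with high daughter fertility. Its log2 fold change for daughter fertility by the authors' deposited table was -1.09 (SE 0.90, unadjusted p = 0.222, adjusted p = 1).

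**Figure D4:**
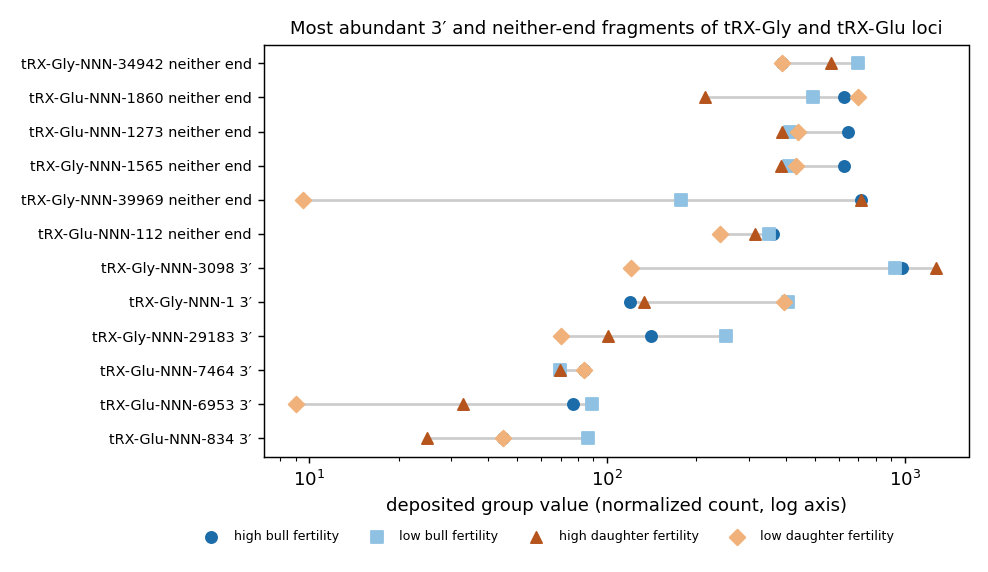
Authors' group values (log axis) of the leading 3′ rows and rows of neither end in the 4 fertility groups, 1 value per group with no error available. The 3′ row of tRX-Gly-NNN-3098 is lowest with low daughter fertility at 121, and the row of neither end of tRX-Gly-NNN-39969 reaches 9.51 there.

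The bull fertility comparison asked which fragments differ between sperm of bulls with high and low fertility. None of the 16543 members with a p passed an adjusted p of 0.05 (0 of 16543, against 0% of 98760 rows in the table), and every adjusted p was 1. At an unadjusted p under 0.05, high bull fertility had 42 members higher (0.254%, against 0.169% of all rows) and 12 lower (0.0725%, against 0.08%). Of these 54 rows 41 had a mean under 10. Another 8 members with a mean of at least 10 have a fold change and no p in the authors' deposited table, for a reason it does not state. Among the 832 members with a p and a mean of at least 10, 7 were higher (0.841%, against 0.474% of all such rows) and 6 lower (0.721%, against 0.58%). Of the tRNA-prefixed glycine and glutamate rows with a p, whatever their mean, 0 of 133 were higher at the same unadjusted threshold. Lower were 5 (3.76%, against 0.08% of all rows), which need not be separate observations.

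The members with a mean of at least 100 and a bull fertility p under 0.05 before adjustment were 3 glycine 5′ rows, all lower with high fertility. Of these, tRX-Gly-NNN-102 had 1992 with high bull fertility against 4820 with low, and its daughter fertility values, 3781 and 3130, lay between them. Its log2 fold change by the authors' deposited table was -1.39 (SE 0.67, unadjusted p = 0.0375, adjusted p = 1). Similarly tRX-Gly-NNN-1772, at 1733 and 4064, had a log2 fold change of -1.39 (unadjusted p = 0.0374, adjusted p = 1) in the authors' deposited table. That of tRX-Gly-NNN-6 lay lower, at 123 and 326, with -1.40 (unadjusted p = 0.0376, adjusted p = 1) by the authors' deposited table. The 5′ fragments of tRNA-Gly-GCC-2, at 9047 with high and 24267 with low bull fertility, had a log2 fold change of -1.42 (SE 0.70, unadjusted p = 0.0421, adjusted p = 1) in the authors' deposited table. The 3 glycine members thus lay near tRNA-Gly-GCC-2 in bull fertility fold change, but that row was picked after its values were seen. For daughter fertility the authors' deposited table gives tRNA-Gly-GCC-2 a log2 fold change of -0.26 (SE 0.70). The members there had 0.07 (tRX-Gly-NNN-102), -0.14 (tRX-Gly-NNN-1772) and -0.04 (tRX-Gly-NNN-6), each with an SE of 0.67. By contrast tRNA-Gly-GCC-5, taken from the near-equal set of tRX-Gly-NNN-252, had a bull fertility log2 fold change of -0.05 (SE 0.76) in the authors' deposited table.

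The named members that were higher with high bull fertility at a small unadjusted p had low values. The 5′ row of tRX-Gly-NNN-1123 had 31.0 with high bull fertility and 0.893 with low, the latter a single read, and 2.62 with high and 43.2 with low daughter fertility. Its log2 fold changes by the authors' deposited table were 3.44 (SE 1.13, unadjusted p = 0.00233, adjusted p = 1) and -3.02 (SE 1.14, unadjusted p = 0.00778, adjusted p = 1), so it was higher with high bull and lower with high daughter fertility. For tRX-Gly-NNN-13517 the 5′ values were 16.0 and 3.17, with a log2 fold change of 3.16 (SE 1.11, unadjusted p = 0.00459, adjusted p = 1) by the authors' deposited table. Its daughter fertility values were 73.4 with high and 7.94 with low. The log2 fold change there was 2.10 (SE 1.10, unadjusted p = 0.0556) by the authors' deposited table, so this row was higher with high fertility in both comparisons. Fragments of neither end of tRX-Glu-NNN-1218 stood at 21.0 and 8.04, with 2.40 (SE 0.88, unadjusted p = 0.00657, adjusted p = 1) in the authors' deposited table. The bull fertility values of these 3 rows rest on 1 to 31 reads each.

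The daughter fertility comparison asked the same of bulls grouped by the fertility of their daughters. Again 0 of 16543 members passed the adjusted threshold, against 0% of 98760 rows, with every adjusted p at 1. At an unadjusted p under 0.05, 37 members were higher (0.224%, against 0.151% of all rows) and 258 lower (1.56%, against 1.18%) with high daughter fertility. Among members with a mean of at least 10 the counts were 2 higher (0.240%, against 1.13% of all such rows) and 7 lower (0.841%, against 2.24%). Of the 295 rows under the unadjusted threshold 286 had a mean under 10 and 176 a mean under 1. Their median mean was 0.625, and the libraries with low daughter fertility were the deeper ones, as given above. Beside them 0 of 133 tRNA-prefixed rows were higher and 3 lower (2.26%, against 1.18% of all rows).

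Besides tRX-Gly-NNN-3098 and tRX-Glu-NNN-6953, which were the 2 higher rows, the named members with small unadjusted p for daughter fertility had means of at most 47.8. The 3′ row of tRX-Gly-NNN-27486 had 10.2 with high and 54.1 with low daughter fertility, and a log2 fold change of -2.60 (SE 0.98, unadjusted p = 0.00774, adjusted p = 1) by the authors' deposited table. The 3′ row of tRX-Glu-NNN-2125 was at 2.55 and 32.1, with -2.42 (SE 1.16, unadjusted p = 0.0366, adjusted p = 1) in the authors' deposited table. It was also lower with high bull fertility, at 1.44 against 8.46.

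Among the 840 members that reach a mean of 10, the directions were mixed and the differences small beside their errors. By fold change in the authors' deposited table, high bull fertility had 358 higher and 482 lower, and the median log2 fold change was -0.08, beside a median SE of 0.85. For daughter fertility 460 were higher and 380 lower, with a median of 0.07 and a median SE of 0.86. Over the whole table at such means 46.9% and 51.9% of rows were higher, and the medians were -0.03 and 0.04. The sign of the authors' fold change went against that of the group values in 143 members for bull and 249 for daughter fertility.

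Abundant 5′ rows, those that reach a mean of 100, differed between the isotype names in these counts, but the names also differed in level. Between 100 and 150 lay 84 tRX-Gly and 19 tRX-Glu rows, and between 2000 and 10000 lay 4 and 25. Within the set of 79 rows the tRX-Gly and tRX-Glu members had bull fertility log2 fold changes of -0.04 to 0.03. In another set, picked after its values were seen, 8 tRX-Gly and 3 tRX-Glu rows had -0.38 to -0.24. Isotype and level were not separated in the counts below. In the fold changes of the authors' deposited table, high bull fertility had 21 of the 129 tRX-Gly rows higher and 108 lower. Their median log2 fold change was -0.22, and 33 were higher and 96 lower by their group values. The 18 tRNA-prefixed glycine rows were all lower, with a median of -0.59. Of the 85 tRX-Glu rows 47 were higher and 38 lower, with a median of 0.00, while by group values 65 were higher and 20 lower. The 10 tRNA-prefixed glutamate rows gave 4 higher and 6 lower, with a median of -0.22, and 1 higher and 9 lower by group values. The median SE was 0.74 for tRX-Gly, 0.75 for tRX-Glu and 0.70 for the tRNA-prefixed rows of each isotype. Each median fold change was smaller than the median SE beside it. Of all rows of the table with such a mean, 27.8% were higher with high bull fertility by fold change. Among the tRX rows of other isotypes 26.2% were higher, with a median log2 fold change of -0.18. Both shares take in all fragment types, and no such share by group values was computed. Many of these rows lie in the near-equal sets above, so they are not separate observations.

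For daughter fertility the direction of these 5′ rows depended on the measure. Of 129 tRX-Gly rows, 115 by the authors' deposited table were higher with high daughter fertility, with a median log2 fold change of 0.27, yet 73 of the 129 were lower by their group values. Of all rows of the table at such means 56.8% were higher by fold change, and of the tRX rows of other isotypes 77.3%, with a median of 0.25. Both shares take in all fragment types. For tRX-Glu 54 of 85 were higher by fold change, with a median of 0.08, and 67 of 85 lower by group values. The tRNA-prefixed glycine rows were lower in 17 of 18 by both measures, with a median log2 fold change of -0.35. The tRNA-prefixed glutamate rows were higher in 5 of 10 by fold change and in 9 of 10 by group values. Here too the median SE, 0.74 for tRX-Gly, 0.75 for tRX-Glu and 0.70 for tRNA-prefixed rows of each isotype, exceeded the median fold change. No direction for daughter fertility is therefore stated for the tRNA-like loci.

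**Figure D5:**
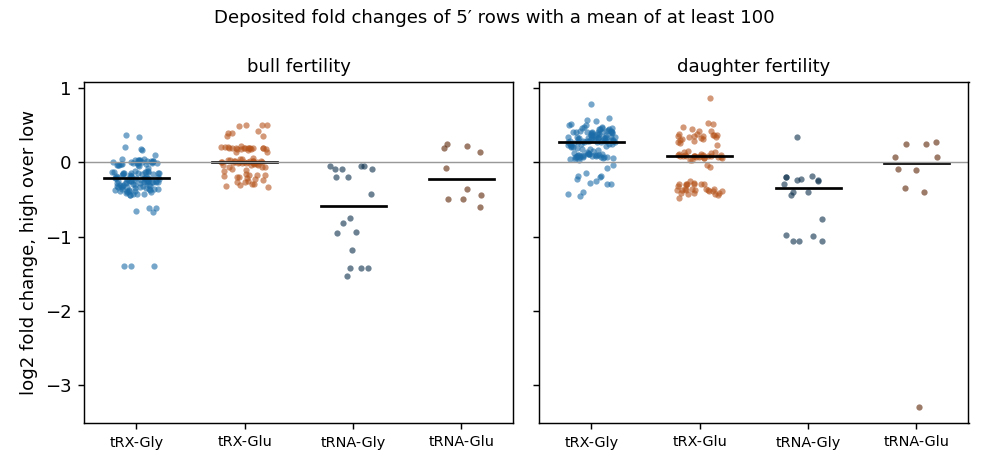
Authors' log2 fold changes, high over low, of 5′ rows with a mean of at least 100 for tRX-Gly, tRX-Glu and the tRNA-prefixed rows of both isotypes, for bull fertility and daughter fertility. Each point is a row and the line is the median, which for bull fertility is -0.22 for tRX-Gly and -0.59 for tRNA-prefixed glycine rows.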

How the data were processed

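Per the labels' protocols, the miRNeasy Mini Kit gave the RNA and a NEBNext kit the libraries. The submitters' processing notes name Trimmomatic 0.39 and DESeq2 1.34.0 but no roles for them. Aligner, genome build, tRNA annotation and counting rule: not given in the sources used here. Per the file headers, the tsRNA table holds the authors' log2 fold change and unadjusted p-value for each comparison and 1 signal per group. From the values, this deposited signal is a normalized count that acts as a median over 3 libraries: each group has 3 step sizes, and all its positive values are whole multiples of one of them (tolerance 1e-04). No value columns of other samples were present (0).

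Here p-values were adjusted by the Benjamini-Hochberg method over all 98760 rows with a p, at a threshold of 0.05, and the SE is the size of the fold change divided by the normal score of its p. The 5′ row of tRX-Gly-NNN-252 had an SE of 0.7624 in both comparisons. Among the members that reach a mean of 10 the median SE was 0.85 for bull and 0.86 for daughter fertility. The p-values may come from a fit over all groups, which was not tested. Members, lists and rules were chosen with earlier results of these data known. Members are named if they are among the 3 highest means of their isotype and fragment type, or among the 5 smallest p-values per comparison and direction with a mean of at least 10. Loci so named may be described with their other fragments, and the leading tRNA-prefixed rows are named beside them. The tRNA-prefixed rows in the near-equal sets and tRNA-Gly-GCC-2 were named after their values were seen. No fold or interval was computed per library. Python 3.11.15, pandas 2.3.3, NumPy 2.4.6 and SciPy 1.17.1 were used, and the routines were tested on simulated data.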

Additional observations from a re-analysis of the deposited data

Results flagged for a closer look

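Antisense rows of the same loci, which enter no comparison above, also held signal. Of the 8889 antisense rows, 151 stood above 3 reads in all 4 groups and 103 reached a mean of 10. Their summed values were 1.78% to 2.27% of the sense sums in the 4 groups. No control sample was at hand to set this against.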

How the results depend on the processing

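No paired analysis was possible because the table gives 1 value per group and no value per sample. For the same reason leaving out each replicate was not run. At an unadjusted p the counts past the threshold were 54 (bull) and 295 (daughter fertility) in place of 0. With the adjustment restricted to rows with a mean of at least 10 both stayed at 0. The share of members higher with high bull fertility, 42.6%, was 47.6% by the ratio of group values, 51.6% at a mean of at least 1 and 30.6% at 100. For daughter fertility, 54.8% became 43.5% by the ratio, 37.8% with no filter, 46.5% at a mean of at least 1 and 73.5% at 100. The median log2 value for daughter fertility, 0.07 by fold change, was -0.09 by the ratio with a pseudocount of 1 and -0.08 with 10. The tRNA-like share of glycine and glutamate signal was 41.7%, 30.1%, 29.6% and 35.4% with equal rows counted once, and 0 by whole-count rows, in the order high and low bull, high and low daughter fertility. The cause of these differences was not tested. Of the 33 named members, the sign of the ratio differed from that of the fold change in 4 for bull and 5 for daughter fertility. Near-equal sets at 5% and 20% in place of 10%, an alternative chosen after seeing the data, held 155 and 201 members in place of 189. The median value above 0 rests on 2 reads in each group.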
